A study of Mus musculus with 6 samples.

Results

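The genes of the MAP kinase cascade and of the dual-specificity phosphatases were followed across dendritic cells and the progenitors they came from. A gene belonged to the set when its symbol in the array annotation was Mapk, Map2k, Map3k, Map4k or Dusp followed by a number, and 59 of the 18193 genes measured met this rule. They comprised 11 MAP kinases, 6 MAP kinase kinases, 15 MAP kinase kinase kinases, 3 MAP4 kinases and 24 dual-specificity phosphatases. Each gene was represented by its brightest probe set, a group of short probes designed to read transcripts of the gene. Of the 59 genes, 51 had a group mean above 4.73, the median of all values, and the other 8 did not, so their levels lie where such arrays hardly part signal from background.

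Gene expression was measured on 6 Affymetrix arrays, 2 for each of 3 groups, with RNA of cells grown from the bone marrow of C57BL/6 mice. GM-TNFa-DC were dendritic cells derived from GM-MPP with the growth factor GM-CSF and TNFa, an inflammatory cytokine. GM-DC were dendritic cells, which present antigens to T cells, derived from GM-MPP with GM-CSF alone. GM-MPP were multipotent progenitors, expanded with stem cell cytokines and GM-CSF, so GM-CSF was present in all 3 groups. All values below are log2 expression levels or differences between them, levels being given per array as number 1 and then number 2. Whether the paired arrays of a group are separate cultures is not stated in the labels. The p-values thus cover only the spread between these arrays, which may be technical.

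MAP kinases relay signals from cytokine, growth factor and stress receptors to the nucleus. A MAP kinase kinase kinase phosphorylates a MAP kinase kinase, which in turn phosphorylates the MAP kinase on a threonine and a tyrosine, and MAP4 kinases can act above this chain. The ERK kinases answer mainly to growth factors, the p38 and JNK kinases mainly to stress and inflammatory cytokines, and ERK5 has a chain of its own. Dual-specificity phosphatases of the MAP kinase phosphatase type remove both phosphates, and many of their genes are switched on by the cascade they restrain. The arrays measure transcripts and not kinase activity.

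The arrays of the dendritic cell groups differed by their number. The poly-A controls spiked into the RNA read higher on number 1 than on number 2 for 24 of 24 probe sets in every group, with a median ratio of 2.58 in GM-TNFa-DC, of 2.13 in GM-DC and of 2.43 in GM-MPP. The 9 dendritic cell markers averaged 10.98 and 9.24 in GM-TNFa-DC, 10.55 and 8.94 in GM-DC, and 4.97 and 5.04 in GM-MPP, so these markers follow the labels. Progenitor markers averaged 4.95 to 5.32 in GM-TNFa-DC, 5.02 to 5.54 in GM-DC and 8.12 to 8.38 in GM-MPP, and neutrophil granule genes averaged 6.35 to 6.99, 6.60 to 8.23 and 12.40 to 12.96 in the same order. Macrophage markers averaged 9.88 to 10.45 in GM-TNFa-DC, 10.42 to 10.69 in GM-DC and 8.16 to 8.46 in GM-MPP, whereas the mean of the lymphoid markers stayed between 3.88 and 4.23 on all 6 arrays. Mast cell and basophil markers averaged 4.92 to 4.98 in GM-TNFa-DC, 4.94 to 5.31 in GM-DC and 6.44 to 6.60 in GM-MPP, and erythroid and megakaryocyte markers 5.86 to 6.53, 5.39 to 6.54 and 6.60 to 7.04 in the same order. These means hide single genes that split by array number. In each dendritic cell group 7 of 8 progenitor markers were lower than GM-MPP on both numbers. The exception, Kit, was at 8.66 and 5.43 in GM-TNFa-DC, 9.0 and 5.65 in GM-DC, and 7.09 and 7.22 in GM-MPP. The megakaryocyte marker Pf4 was at 8.88 and 12.81, 6.23 and 12.79, and 9.08 and 10.55 in the same order. Values within each array number are therefore given beside the pooled ones.

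**Figure D1:**
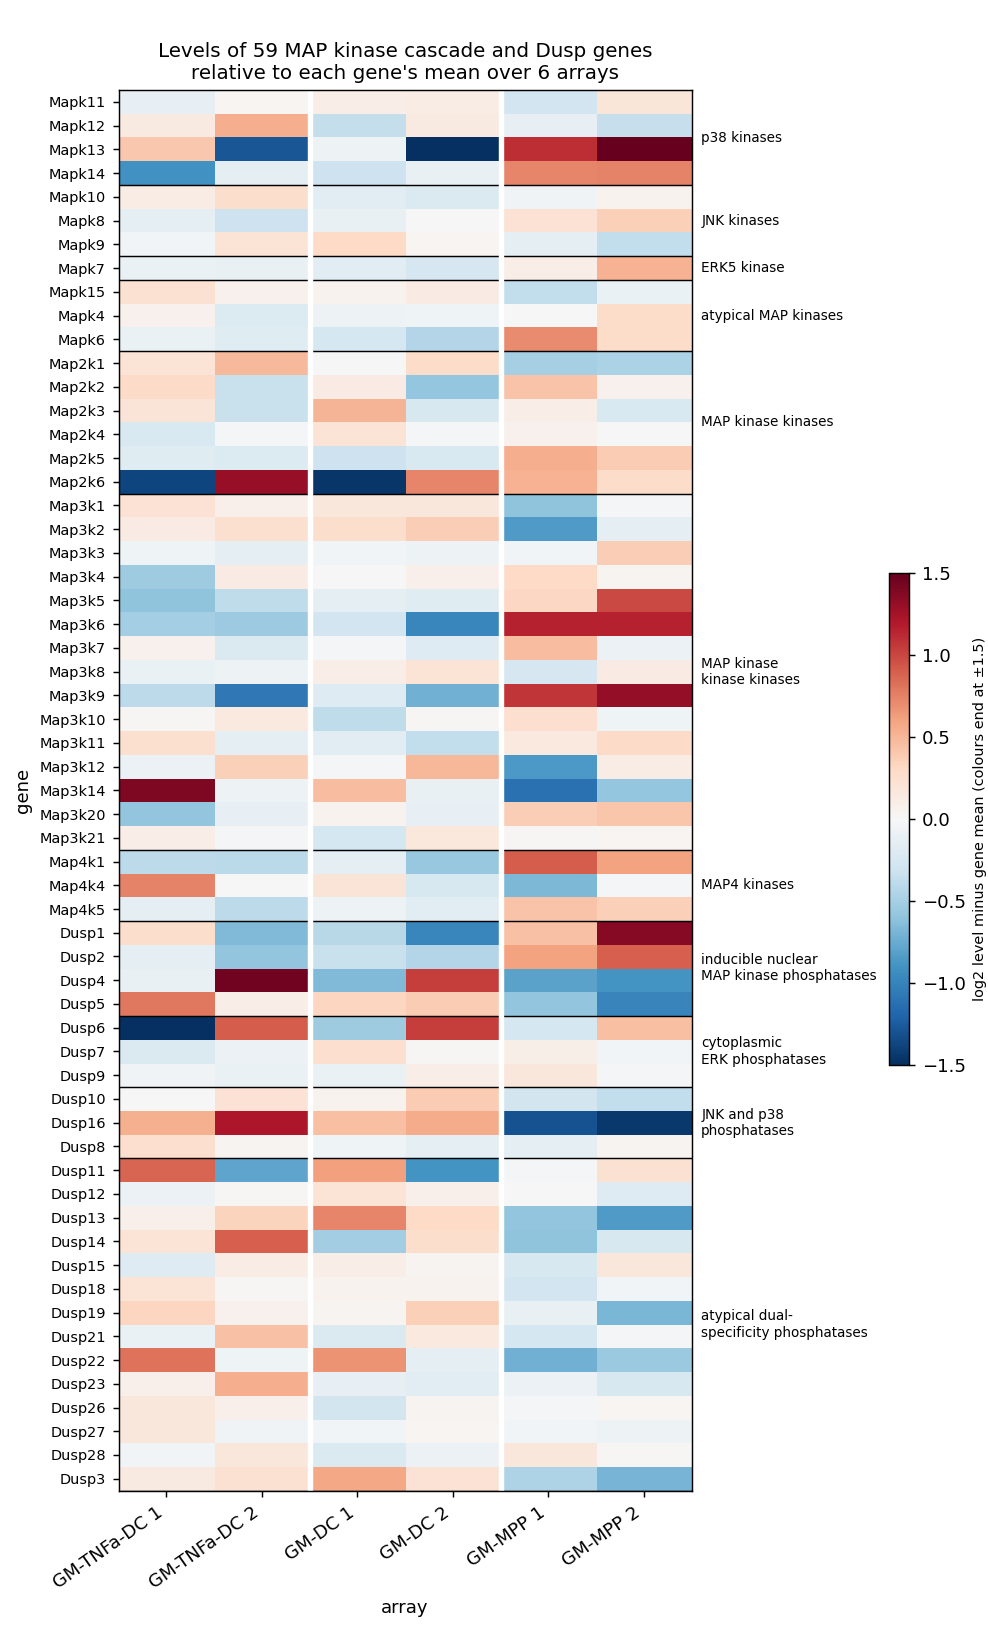
Levels of the 59 genes on the 6 arrays, each shown as its log2 level minus the gene's mean over the arrays, with genes in rows ordered by role and arrays in columns. Dusp16 is red on all 4 dendritic cell arrays and blue on both GM-MPP arrays, Map3k6 and Map3k9 show the opposite, and Mapk13, Map2k6, Dusp4, Dusp6 and Dusp11 differ between the arrays of a dendritic cell group.

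Setting GM-DC against GM-MPP addressed how these genes differ between dendritic cells and the progenitors they were derived from. A phosphatase that acts on JNK and p38, Dusp16, and an atypical phosphatase, Dusp13, rose, while the MAP kinase kinase kinases Map3k6 and Map3k9 fell. Thus 2 of 59 genes rose, against 1.87% of all genes, and 2 fell, against 2.63% of all genes (limma, Benjamini-Hochberg adjusted p under 0.05 over 18193 genes). In either direction 6.78% of the set and 4.5% of all genes were called, so the 4 calls lie near the background. At an unadjusted p under 0.05, 7 were higher and 11 lower, against 9.06% and 12.5% of all genes. The arrays did not overlap between the groups for 16 genes that were higher and 18 that were lower, against 28.3% and 27% of all genes. The median log2 change was 0.02 over the 59 genes and 0.02 over all genes. In such bulk samples, fewer cells of a type and less RNA per cell cannot be told apart.

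Setting GM-TNFa-DC against GM-MPP used the same GM-MPP arrays, so its results are not independent of those for GM-DC. Dusp16 rose, and Map3k6, Map3k9, the inducible nuclear phosphatase Dusp2 and the haematopoietic MAP4 kinase Map4k1 fell. These are 1 of 59 genes higher, against 2.77% of all genes, and 4 lower, against 4.26% of all genes. In either direction 8.47% of the set and 7.03% of all genes were called. The arrays did not overlap for 21 genes that were higher and 18 that were lower, against 31.6% and 26.1% of all genes.

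Dusp16, also known as MKP-7, binds and inactivates JNK and p38. Its level was 8.25 and 8.93 in GM-TNFa-DC, 8.16 and 8.27 in GM-DC, and 6.41 and 6.28 in GM-MPP. All 4 dendritic cell arrays lay above both progenitor arrays. The change was 2.25 ± 0.28 (SE) in GM-TNFa-DC against GM-MPP, a 4.75-fold rise (adjusted p = 0.0160), and 1.87 ± 0.28 in GM-DC against GM-MPP, a 3.66-fold rise (adjusted p = 0.0285). A dimmer second probe set of Dusp16 differed by 0.99 ± 0.33 and 0.54 ± 0.33 in these comparisons and was not called. With the mean of both probe sets the GM-DC change was 1.2 and no longer passed (adjusted p = 0.0867).

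The other phosphatases of JNK and p38 differed less. Dusp10 (MKP-5) was at 5.32 and 5.54 in GM-TNFa-DC, 5.37 and 5.71 in GM-DC, and 5.04 and 4.95 in GM-MPP. Its change of 0.54 ± 0.19 in GM-DC did not pass (adjusted p = 0.180), although the groups did not overlap. Dusp8 lay between 5.91 and 6.30 on all arrays.

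Map3k6, also called ASK2, is a stress-responsive kinase that works together with ASK1, the product of Map3k5. Map3k6 was at 5.06 and 5.02 in GM-TNFa-DC, 5.28 and 4.59 in GM-DC, and 6.73 and 6.73 in GM-MPP. Both GM-MPP arrays hold the same deposited value, as they do for 37 of the 18193 genes, so these arrays show no spread for it. The change was -1.69 ± 0.25 in GM-TNFa-DC (adjusted p = 0.0246) and -1.79 ± 0.25 in GM-DC (adjusted p = 0.0260). In the dendritic cells its level came close to the median of all values.

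Map3k5 was at 6.51 and 6.73 in GM-TNFa-DC, 6.96 and 6.93 in GM-DC, and 7.42 and 8.10 in GM-MPP. Both dendritic cell groups lay below the progenitors without overlap, but neither the change of -1.14 ± 0.28 in GM-TNFa-DC (adjusted p = 0.0735) nor that of -0.82 ± 0.28 in GM-DC (adjusted p = 0.175) passed.

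Map3k9 encodes a mixed-lineage kinase, MLK1, which acts on the JNK chain. It was at 4.72 and 4.04 in GM-TNFa-DC, 4.91 and 4.39 in GM-DC, and 6.18 and 6.42 in GM-MPP, so that both dendritic cell groups reached background levels. The change was -1.92 ± 0.30 in GM-TNFa-DC (adjusted p = 0.0264) and -1.65 ± 0.30 in GM-DC (adjusted p = 0.0451). Its other 2 probe sets were dim on all arrays, with mean levels of 3.69 and 3.16, and differed by -0.38 and 0.20 in GM-DC. Averaged over the 3 probe sets, the change was -0.87 in GM-TNFa-DC (adjusted p = 0.0197) and -0.61 in GM-DC, which did not pass (adjusted p = 0.0539).

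**Figure D2:**
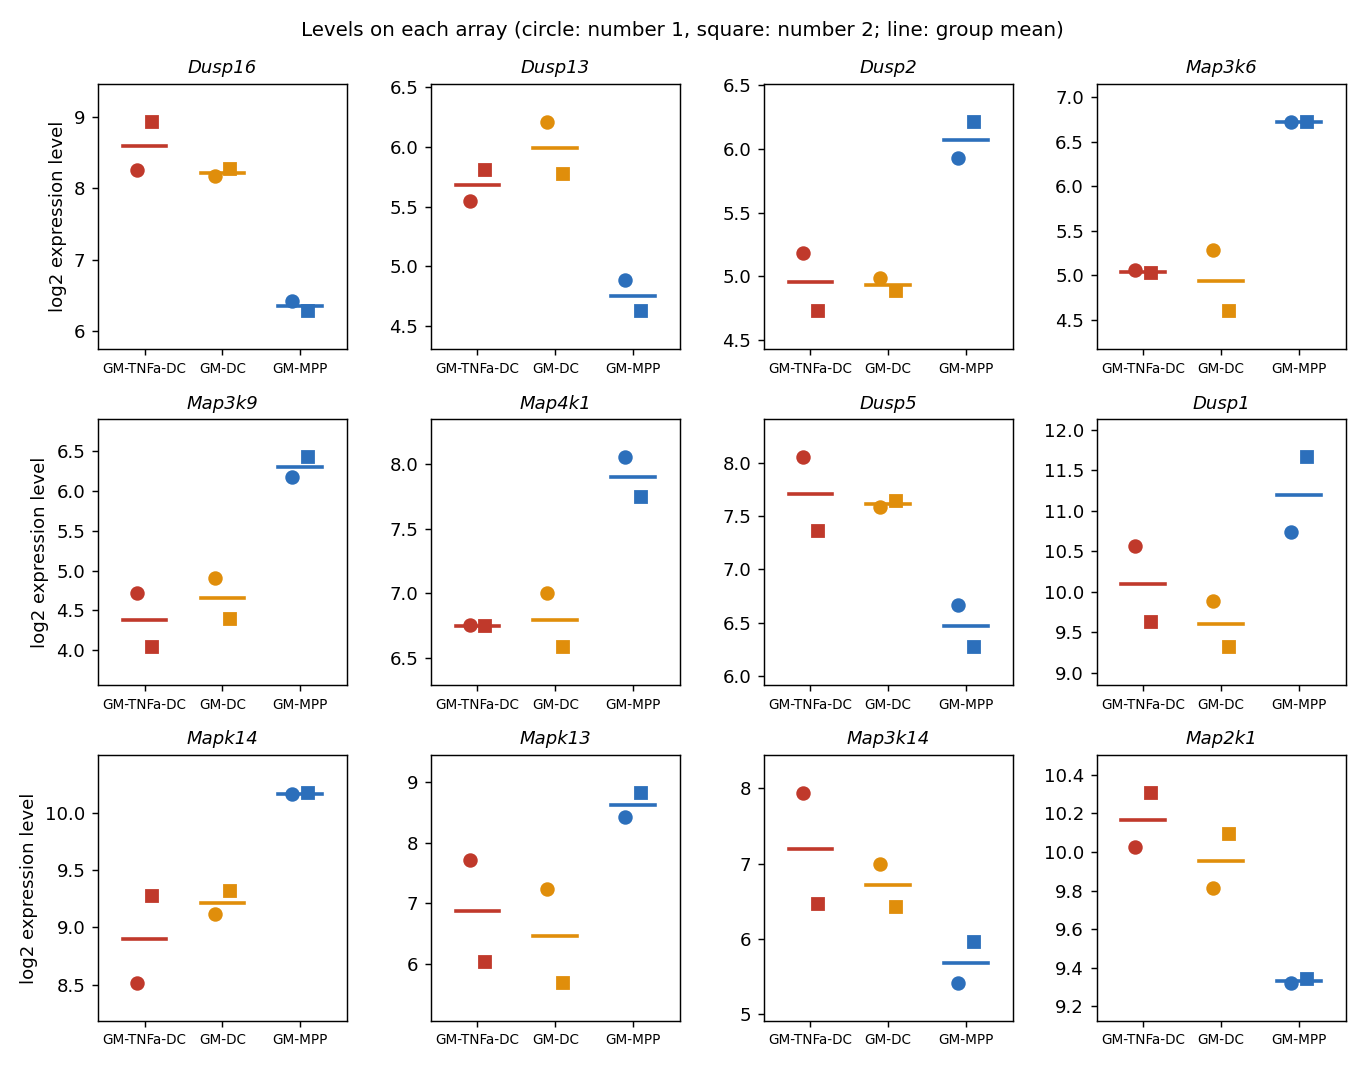
Log2 expression levels of 12 of the genes on each array, with circles for number-1 arrays, squares for number-2 arrays and lines for group means over 2 arrays. Each panel has its own vertical axis. For Dusp16, Map3k6, Map3k9 and Map4k1 the dendritic cell arrays lie apart from the GM-MPP arrays, whereas circle and square lie far apart for Mapk13 in both dendritic cell groups and for Map3k14 in GM-TNFa-DC.

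Start-site sequences of 48 of the 59 genes could be matched in RefSeq (GRCm38.p6, 250 bases before to 50 bases after the annotated start). Those of the gene that rose in both comparisons and of the Map3k genes that fell are shown 5′ to 3′ on the gene's strand because these genes were called in both comparisons. The motifs searched were the cyclic AMP response element TGACGTCA, the E-box CACGTG and the GC box GGGCGG, each on both strands, and matches are in capitals. Adjoining or overlapping matches run together. Dusp16 lies on the minus strand (chr6:134792579-134792878), Map3k6 on the plus strand (chr4:133240568-133240867) and Map3k9 on the minus strand (chr12:81781121-81781420).
Dusp16: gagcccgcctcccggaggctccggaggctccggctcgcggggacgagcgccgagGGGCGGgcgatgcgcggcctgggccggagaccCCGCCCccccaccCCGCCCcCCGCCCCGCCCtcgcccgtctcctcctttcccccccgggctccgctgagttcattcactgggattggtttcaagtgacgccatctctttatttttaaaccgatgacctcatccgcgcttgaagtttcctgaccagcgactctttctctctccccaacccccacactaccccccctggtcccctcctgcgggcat
Map3k6: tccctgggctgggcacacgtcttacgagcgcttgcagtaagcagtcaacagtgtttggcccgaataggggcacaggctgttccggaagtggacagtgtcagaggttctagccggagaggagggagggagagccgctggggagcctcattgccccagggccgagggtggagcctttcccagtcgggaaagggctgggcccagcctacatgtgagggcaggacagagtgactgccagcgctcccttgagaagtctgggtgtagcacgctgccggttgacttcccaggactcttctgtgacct
Map3k9: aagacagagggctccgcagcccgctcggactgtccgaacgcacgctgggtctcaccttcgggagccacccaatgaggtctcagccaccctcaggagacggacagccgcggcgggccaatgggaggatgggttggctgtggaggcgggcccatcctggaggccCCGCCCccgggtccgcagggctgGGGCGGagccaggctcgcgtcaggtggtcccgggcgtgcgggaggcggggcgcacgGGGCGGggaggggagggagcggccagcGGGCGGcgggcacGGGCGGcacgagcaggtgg
Dusp16 and Map3k9 each held 5 GC boxes, although their levels moved in opposite directions, and the Map3k6 window held none of the 3 motifs. Of all 32851 promoters 35.7% held a GC box, and of the 48 genes matched here 35 did, or 72.9%. The shares are in unlike units, because a gene was counted when any of its start sites matched, while the background counts each promoter. The median GC content was 63.8% over the 62 start sites of these genes and 52.7% over all promoters. A match is a description of the letters and not of binding.

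Of the 4 nuclear phosphatases whose genes are induced early after stimulation, only Dusp2 was called, and the 4 did not share a direction. Dusp2 (PAC-1), found mainly in blood cells, was at 5.19 and 4.73 in GM-TNFa-DC, 4.99 and 4.88 in GM-DC, and 5.93 and 6.21 in GM-MPP. It fell by 1.12 ± 0.22 in GM-TNFa-DC (adjusted p = 0.0444), and its change of -1.14 ± 0.22 in GM-DC just missed the threshold (adjusted p = 0.0527). In the dendritic cells the level of Dusp2 came close to the median of all values. GM-TNFa-DC and GM-DC themselves differed by 0.02 ± 0.22 (adjusted p = 1), so the calls do not part the dendritic cell groups.

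Dusp1 (MKP-1), which inactivates p38 and JNK, had high levels in all groups. It was at 10.56 and 9.63 in GM-TNFa-DC, 9.88 and 9.31 in GM-DC, and 10.73 and 11.66 in GM-MPP. All dendritic cell arrays lay below both progenitor arrays, but neither the change of -1.10 ± 0.46 in GM-TNFa-DC (adjusted p = 0.213) nor that of -1.60 ± 0.46 in GM-DC passed (adjusted p = 0.122). Within array numbers, GM-DC against GM-MPP differed by -0.85 on number 1 and by -2.34 on number 2.

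The start-site windows of these early response phosphatases are shown for comparison with that of Dusp16. Dusp2 lies on the plus strand (chr2:127335909-127336208) and Dusp1 on the minus strand (chr17:26508423-26508722).
Dusp2: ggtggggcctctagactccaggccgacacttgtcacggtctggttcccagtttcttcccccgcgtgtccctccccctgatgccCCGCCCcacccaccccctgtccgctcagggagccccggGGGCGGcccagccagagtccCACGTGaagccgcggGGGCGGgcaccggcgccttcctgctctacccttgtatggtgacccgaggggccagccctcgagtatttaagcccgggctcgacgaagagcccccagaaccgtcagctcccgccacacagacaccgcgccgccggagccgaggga
Dusp1: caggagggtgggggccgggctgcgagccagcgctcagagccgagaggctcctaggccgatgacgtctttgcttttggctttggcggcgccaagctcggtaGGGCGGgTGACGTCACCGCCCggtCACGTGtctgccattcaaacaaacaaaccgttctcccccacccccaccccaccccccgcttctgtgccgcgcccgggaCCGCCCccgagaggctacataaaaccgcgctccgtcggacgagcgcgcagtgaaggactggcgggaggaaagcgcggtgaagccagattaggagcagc
Dusp1 held 1 cyclic AMP response element, starting at position -143 relative to the annotated start and directly followed by a GC box, and 1 E-box and 3 GC boxes in all. Dusp2 held 1 E-box and 3 GC boxes. The response element was present in 1.79% and the E-box in 7.15% of all promoters. At least 1 start site held them in 3 and 5 of the 48 genes matched here, again counted per gene and not per promoter.

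Dusp5, a nuclear phosphatase for ERK, was at 8.05 and 7.36 in GM-TNFa-DC, 7.58 and 7.64 in GM-DC, and 6.67 and 6.27 in GM-MPP. The dendritic cell arrays all lay above the progenitor arrays, with changes of 1.24 ± 0.30 in GM-TNFa-DC (adjusted p = 0.0712) and 1.14 ± 0.30 in GM-DC (adjusted p = 0.101), neither of which passed. Dusp4 (MKP-2) was at 4.83 and 6.39 in GM-TNFa-DC, 4.29 and 5.98 in GM-DC, and 4.14 and 4.05 in GM-MPP. It stood at background in the progenitors and above it mainly on the number-2 arrays of the dendritic cells, and its changes of 1.52 ± 0.70 and 1.04 ± 0.70 did not pass (adjusted p = 0.249 and 0.458).

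Among the cytoplasmic phosphatases of ERK, no gene was called. Dusp6 (MKP-3), a feedback inhibitor of ERK, was at 6.54 and 9.05 in GM-TNFa-DC, 7.61 and 9.18 in GM-DC, and 7.87 and 8.58 in GM-MPP. Its arrays overlapped between all groups, and its change had a standard error of 0.92 in each comparison. Dusp7 lay between 6.32 and 6.78 and Dusp9 between 4.57 and 4.84 on the 6 arrays.

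The 14 atypical dual-specificity phosphatases, which lack the kinase-binding domain of the MAP kinase phosphatases, held 1 gene that rose in GM-DC and 0 that fell. That gene was Dusp13, known from testis and skeletal muscle. It was at 5.55 and 5.81 in GM-TNFa-DC, 6.21 and 5.77 in GM-DC, and 4.89 and 4.62 in GM-MPP, and is close to background in the progenitors. The change was 1.24 ± 0.23 in GM-DC (adjusted p = 0.0452) and 0.92 ± 0.23 in GM-TNFa-DC, which did not pass (adjusted p = 0.0735).

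Dusp3 (VHR), which can act on ERK and JNK, was at 8.19 and 8.28 in GM-TNFa-DC, 8.63 and 8.26 in GM-DC, and 7.59 and 7.36 in GM-MPP. It lay higher on all dendritic cell arrays, by 0.77 ± 0.23 in GM-TNFa-DC (adjusted p = 0.111) and by 0.98 ± 0.23 in GM-DC (adjusted p = 0.0779), and all 3 of its probe sets had the same sign. Dusp22 was at 8.29 and 7.40 in GM-TNFa-DC, 8.15 and 7.33 in GM-DC, and 6.75 and 6.92 in GM-MPP. Its changes of 1.01 ± 0.41 and 0.90 ± 0.41 did not pass (adjusted p = 0.198 and 0.274). Dusp19 was at 8.07 and 7.81 in GM-TNFa-DC, 7.79 and 8.11 in GM-DC, and 7.64 and 7.06 in GM-MPP, again higher on all dendritic cell arrays without passing (adjusted p = 0.257 and 0.290). Dusp15, Dusp21, Dusp26 and Dusp27 were dim in every group, and Dusp12, Dusp18 and Dusp28 were not called (adjusted p of at least 0.385). Over the 14 genes, changes ranged from -0.06 to 1.01 in GM-TNFa-DC and from -0.25 to 1.24 in GM-DC, with medians of 0.29 and 0.16.

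Taking phosphatases as a whole, 13 of 24 were higher and 3 lower in GM-DC on both array numbers, with a median change of 0.14, against 35.5% of all genes higher, 32.6% lower and a median of 0.02. Of the 35 kinases 8 were higher and 17 lower on both numbers, with a median of -0.22. In GM-TNFa-DC against GM-MPP, 14 phosphatases were higher and 4 lower on both numbers with a median of 0.24, and 10 kinases were higher and 16 lower with a median of -0.21, against 39.1% of all genes higher, 30.7% lower and a median of 0.05. These counts describe the genes and are no test of the families.

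**Figure D3:**
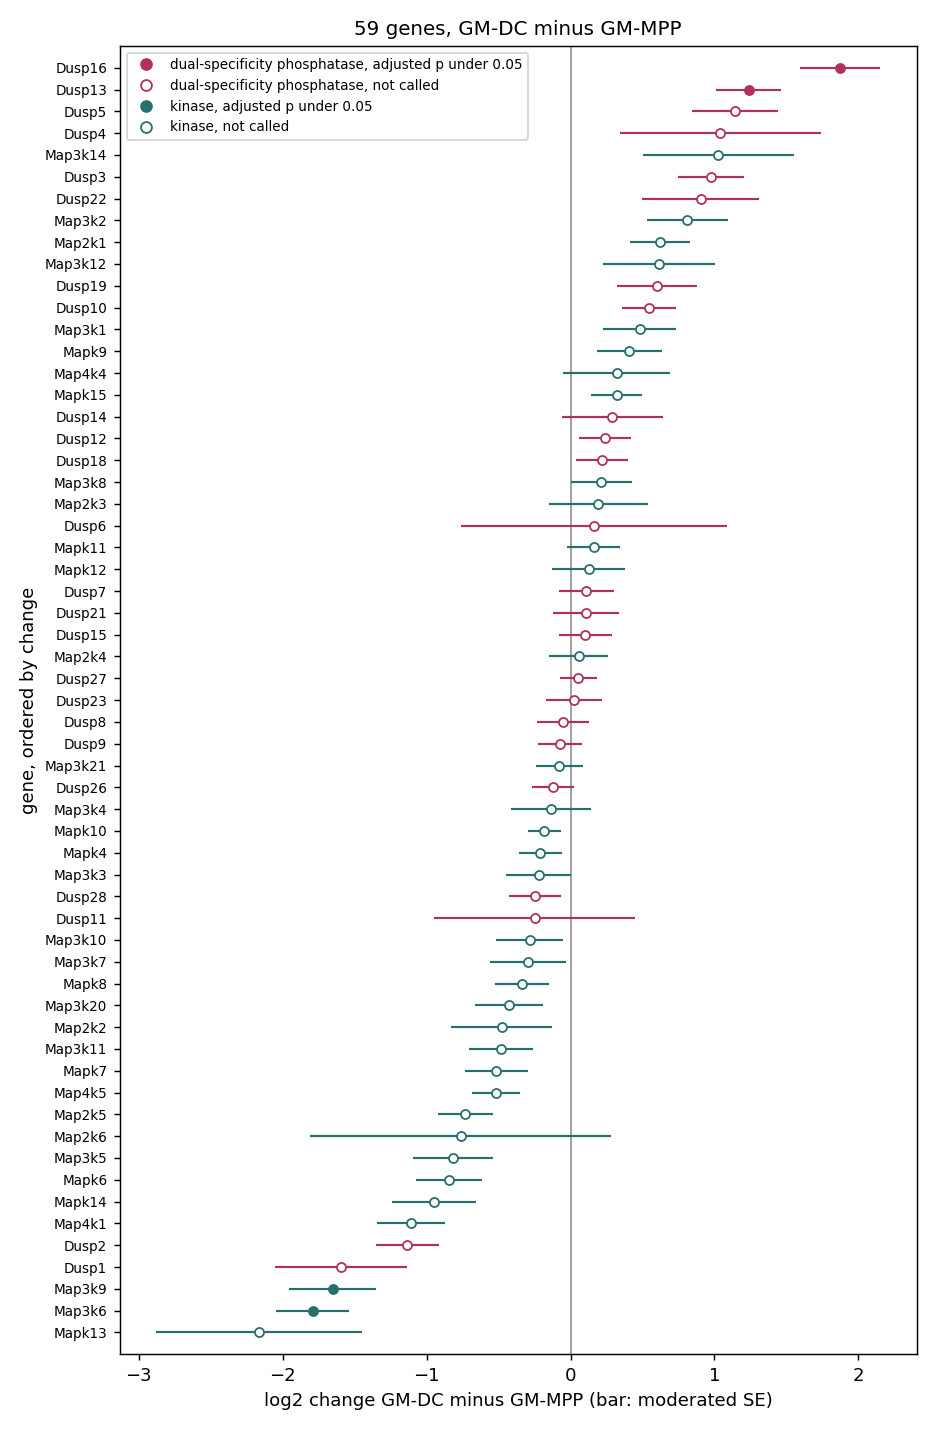
Log2 change of each of the 59 genes in GM-DC against GM-MPP, with bars for the moderated standard error and filled points for an adjusted p under 0.05. Dusp16 and Dusp13 lie at the upper end at 1.87 and 1.24, Map3k6 and Map3k9 near the lower end at -1.79 and -1.65, and Mapk13 has the largest decrease but a standard error of 0.72.

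Of the 4 p38 kinases, none was called in either comparison. Mapk14 encodes p38 alpha, the main form in most cells. It was at 8.52 and 9.27 in GM-TNFa-DC, 9.12 and 9.31 in GM-DC, and 10.16 and 10.17 in GM-MPP. The dendritic cell arrays lay below the progenitor arrays throughout, with a change of -1.27 ± 0.29 in GM-TNFa-DC (adjusted p = 0.0649) and of -0.95 ± 0.29 in GM-DC (adjusted p = 0.143).

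Mapk13, p38 delta, was at 7.72 and 6.03 in GM-TNFa-DC, 7.24 and 5.68 in GM-DC, and 8.43 and 8.82 in GM-MPP. All dendritic cell arrays were lower than the progenitor arrays. Its change of -2.16 ± 0.72 in GM-DC (adjusted p = 0.163) was the largest decrease in the set but did not pass, nor did that of -1.75 ± 0.72 in GM-TNFa-DC (adjusted p = 0.205). Within numbers the GM-DC difference was -1.19 on number 1 and -3.14 on number 2. Mapk12 lay between 5.14 and 6.04, and Mapk11 between 3.82 and 4.29, below the median of all values.

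The JNK kinases differed little. Mapk8 (JNK1) was at 6.48 and 6.30 in GM-TNFa-DC, 6.51 and 6.62 in GM-DC, and 6.83 and 6.97 in GM-MPP, with changes of -0.51 ± 0.19 (adjusted p = 0.170) and -0.34 ± 0.19 (adjusted p = 0.366). Mapk9 (JNK2) lay between 8.06 and 8.39 in the dendritic cells and at 7.97 and 7.73 in GM-MPP, with changes of 0.33 ± 0.23 and 0.41 ± 0.23 (adjusted p = 0.410 and 0.364). Neither gene passed, and Mapk10, a JNK known mainly from neurons, stayed between 3.39 and 3.87 on every array.

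Among the other MAP kinases, Mapk6 (ERK3), an atypical kinase, was at 9.01 and 8.94 in GM-TNFa-DC, 8.86 and 8.67 in GM-DC, and 9.83 and 9.39 in GM-MPP. It was lower on every dendritic cell array, by changes of -0.63 ± 0.23 (adjusted p = 0.167) and -0.85 ± 0.23 (adjusted p = 0.111), and its 4 probe sets all had the same sign. Mapk7, which encodes ERK5, was at 6.84 and 6.83 in GM-TNFa-DC, 6.79 and 6.69 in GM-DC, and 7.04 and 7.47 in GM-MPP, without overlap but with changes of -0.42 ± 0.22 and -0.52 ± 0.22 that did not pass (adjusted p = 0.301 and 0.252). Map2k5, the kinase that activates ERK5, lay in the same direction. It was at 7.09 and 7.07 in GM-TNFa-DC, 6.97 and 7.05 in GM-DC, and 7.82 and 7.66 in GM-MPP, with changes of -0.66 ± 0.19 and -0.73 ± 0.19 (adjusted p = 0.103 and 0.0987). The atypical kinases Mapk15 and Mapk4 lay between 5.07 and 5.67 and between 3.39 and 3.86 on all arrays, and neither was called.

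None of the 6 MAP kinase kinases was called. Map2k1 (MEK1), which activates ERK, was at 10.03 and 10.30 in GM-TNFa-DC, 9.81 and 10.09 in GM-DC, and 9.32 and 9.34 in GM-MPP. Every dendritic cell array lay above the progenitor arrays, with changes of 0.83 ± 0.21 (adjusted p = 0.0785) and 0.62 ± 0.21 (adjusted p = 0.173). Its partner Map2k2 (MEK2) overlapped between groups, at 8.59 and 7.96 in GM-TNFa-DC, 8.42 and 7.72 in GM-DC, and 8.73 and 8.37 in GM-MPP. Map2k3, an activator of p38, ranged from 8.26 to 9.10 and overlapped between the groups. Map2k4, which acts on JNK and p38, was at 8.77 and 8.98 in GM-TNFa-DC, 9.21 and 8.98 in GM-DC, and 9.07 and 9.0 in GM-MPP, so that GM-TNFa-DC lay just below GM-MPP without overlap (adjusted p = 0.670).

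Map2k6, the other main activator of p38, was at 4.70 and 7.38 in GM-TNFa-DC, 4.61 and 6.80 in GM-DC, and 6.60 and 6.34 in GM-MPP. On the number-1 arrays both dendritic cell groups were near background, and on the number-2 arrays both were above the progenitors, so the mean changes of -0.43 ± 1.05 and -0.76 ± 1.05 combine opposite directions. The differences were -1.90 and -1.98 on number 1 and 1.04 and 0.46 on number 2.

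Of the 15 MAP kinase kinase kinases, Map3k6 and Map3k9 were the only ones called. Map3k14 (NIK), the kinase of the noncanonical NF-kB pathway, was at 7.93 and 6.46 in GM-TNFa-DC, 7.0 and 6.42 in GM-DC, and 5.42 and 5.96 in GM-MPP. All dendritic cell arrays were above the progenitors, yet the changes of 1.51 ± 0.53 and 1.03 ± 0.53 did not pass (adjusted p = 0.154 and 0.333). Map3k2 (MEKK2), an activator of the ERK5 chain, was at 7.0 and 7.12 in GM-TNFa-DC, 7.14 and 7.25 in GM-DC, and 6.02 and 6.74 in GM-MPP, again without overlap and with changes of 0.68 ± 0.28 and 0.81 ± 0.28 that did not pass (adjusted p = 0.205 and 0.176). Only 1 of the 3 Map3k2 probe sets was higher in GM-TNFa-DC against GM-MPP, the others differing by -0.10 and -0.04. Map3k1 (MEKK1) was at 7.64 and 7.5 in GM-TNFa-DC, 7.59 and 7.58 in GM-DC, and 6.82 and 7.39 in GM-MPP (changes of 0.46 ± 0.25 and 0.48 ± 0.25, adjusted p = 0.318 and 0.344). Map3k7 (TAK1), which links TNF and interleukin-1 receptors to NF-kB and JNK, lay between 7.17 and 7.86 on all arrays, and Map3k8 (Tpl2), which links them to ERK, between 7.07 and 7.51.

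Map3k20 (ZAK), a kinase that responds to stalled ribosomes, was at 6.99 and 7.46 in GM-TNFa-DC, 7.63 and 7.46 in GM-DC, and 7.95 and 8.0 in GM-MPP. Its dendritic cell arrays all lay below the progenitor arrays, without passing (adjusted p = 0.127 in GM-TNFa-DC and 0.367 in GM-DC). Map3k12 (DLK), a mixed-lineage kinase known from neurons, was at 6.07 and 6.52 in GM-TNFa-DC, 6.14 and 6.66 in GM-DC, and 5.30 and 6.27 in GM-MPP, so that its arrays overlapped. The other uncalled members of the family, Map3k3, Map3k4, Map3k10, Map3k11 and Map3k21, had adjusted p of at least 0.453 in GM-TNFa-DC and at least 0.285 in GM-DC.

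Map4k1 (HPK1), a kinase of blood cells that restrains antigen receptor signalling, was at 6.75 and 6.75 in GM-TNFa-DC, 7.0 and 6.58 in GM-DC, and 8.05 and 7.75 in GM-MPP. Both dendritic cell groups lay below the progenitors. The gene fell by 1.15 ± 0.24 in GM-TNFa-DC (adjusted p = 0.0484), and the change of -1.11 ± 0.24 in GM-DC did not pass (adjusted p = 0.0652). Map4k5 was at 5.32 and 5.08 in GM-TNFa-DC, 5.39 and 5.29 in GM-DC, and 5.90 and 5.82 in GM-MPP, with changes of -0.66 ± 0.17 and -0.52 ± 0.17 (adjusted p = 0.0819 and 0.160). Map4k4 ranged from 7.73 to 9.15 and overlapped between GM-DC and GM-MPP. GM-TNFa-DC lay above GM-MPP without overlap, by 0.71 ± 0.37, which did not pass (limma, adjusted p = 0.298). Within numbers that difference was 1.415 on number 1 and 0.0093 on number 2. The 5 probe sets of Map4k4 ranged from -0.22 to 0.71 in this comparison.

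Most calls of the set were lost when an array of a compared group was left out. Far fewer of all 18193 genes were then called too, so the loss is not particular to the set. Without GM-MPP array 1 or GM-MPP array 2, 0 of the 59 genes were called in either comparison, with the spread for the lone GM-MPP array borrowed from the other arrays. In GM-DC against GM-MPP, 1 gene, Map3k6, was called without GM-DC array 1 and 0 without GM-DC array 2. In GM-TNFa-DC against GM-MPP, Dusp16 and Map3k9 were called without GM-TNFa-DC array 1, and Dusp16 and Mapk14 without GM-TNFa-DC array 2. The call of Dusp13 in GM-DC and those of Dusp2 and Map4k1 in GM-TNFa-DC were lost whichever of the 6 arrays was left out. Their adjusted p then lay between 0.0615 and 0.207 for Dusp13, 0.0734 and 0.183 for Dusp2, and 0.0684 and 0.261 for Map4k1. Progenitor markers (6 of 8 lower in GM-DC) and neutrophil granule genes (6 of 10 lower) moved with the same contrast, as did dendritic cell markers (7 of 9 higher), macrophage markers (2 of 8 higher), mast cell and basophil markers (2 of 6 lower), erythroid and megakaryocyte markers (2 of 6 lower) and 1 of 6 lymphoid markers (lower), and their part in these results was not tested.

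What the addition of TNFa changed was addressed by setting GM-TNFa-DC against GM-DC. No gene of the set was called, and neither was any of the 18193 genes (limma, 0% of all genes, adjusted p = 1 for each of the 59). At an unadjusted p under 0.05, 1 of the 59 genes was higher and 0 were lower, against 1.48% and 0.77% of all genes. The changes ranged from -0.60 to 0.68, and 57 of the 59 were smaller than 0.5 in size, or 96.6% against 94.3% of all genes. On both array numbers 24 genes were higher and 15 lower, which is 40.7% and 25.4% of the set against 30.9% and 26.3% of all genes. A change below the threshold is not shown to be absent with 2 arrays a group.

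Those 2 larger differences were in Dusp14 and Dusp6. Dusp14 (MKP-6), a phosphatase that restrains T cell activation, was at 4.73 and 5.42 in GM-TNFa-DC, 4.0 and 4.78 in GM-DC, and 3.92 and 4.29 in GM-MPP. Its difference from GM-DC was 0.68 ± 0.35, with 0.73 on number 1 and 0.64 on number 2, the highest mean in the set at levels near background. The Dusp6 difference was -0.60 ± 0.92, with -1.07 on number 1 and -0.13 on number 2.

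Map3k14 differed by 0.48 ± 0.53, with 0.93 on number 1 and 0.04 on number 2, so the difference lay mainly on number 1. Map3k8 was at 7.21 and 7.23 in GM-TNFa-DC and at 7.42 and 7.51 in GM-DC, a difference of -0.25 ± 0.21 that did not pass, although the arrays did not overlap. Dusp1 differed by 0.50 ± 0.46 and Dusp4 by 0.48 ± 0.70, both higher on both numbers, with arrays that overlap between the groups. Dusp16 differed by 0.37 ± 0.28, with 0.08 on number 1 and 0.66 on number 2.

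The arrays of GM-TNFa-DC and GM-DC did not overlap for 9 genes that were higher and 7 that were lower, or 15.3% and 11.9% of the set against 14.9% and 10.6% of all genes. By size these were led by Dusp23 at 0.45 ± 0.19, Mapk10 at 0.37 ± 0.12, Map3k5 at -0.33 ± 0.28, Map3k11, the mixed-lineage kinase MLK3, at 0.32 ± 0.22, Dusp7 at -0.28 ± 0.19 and Map3k8. Mapk10 was the gene with an unadjusted p under 0.05 (adjusted p = 1, limma). It was at 3.71 and 3.87 in GM-TNFa-DC, 3.45 and 3.39 in GM-DC, and 3.55 and 3.65 in GM-MPP, all below the median of all values, and so is not distinguished from background.

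**Figure D4:**
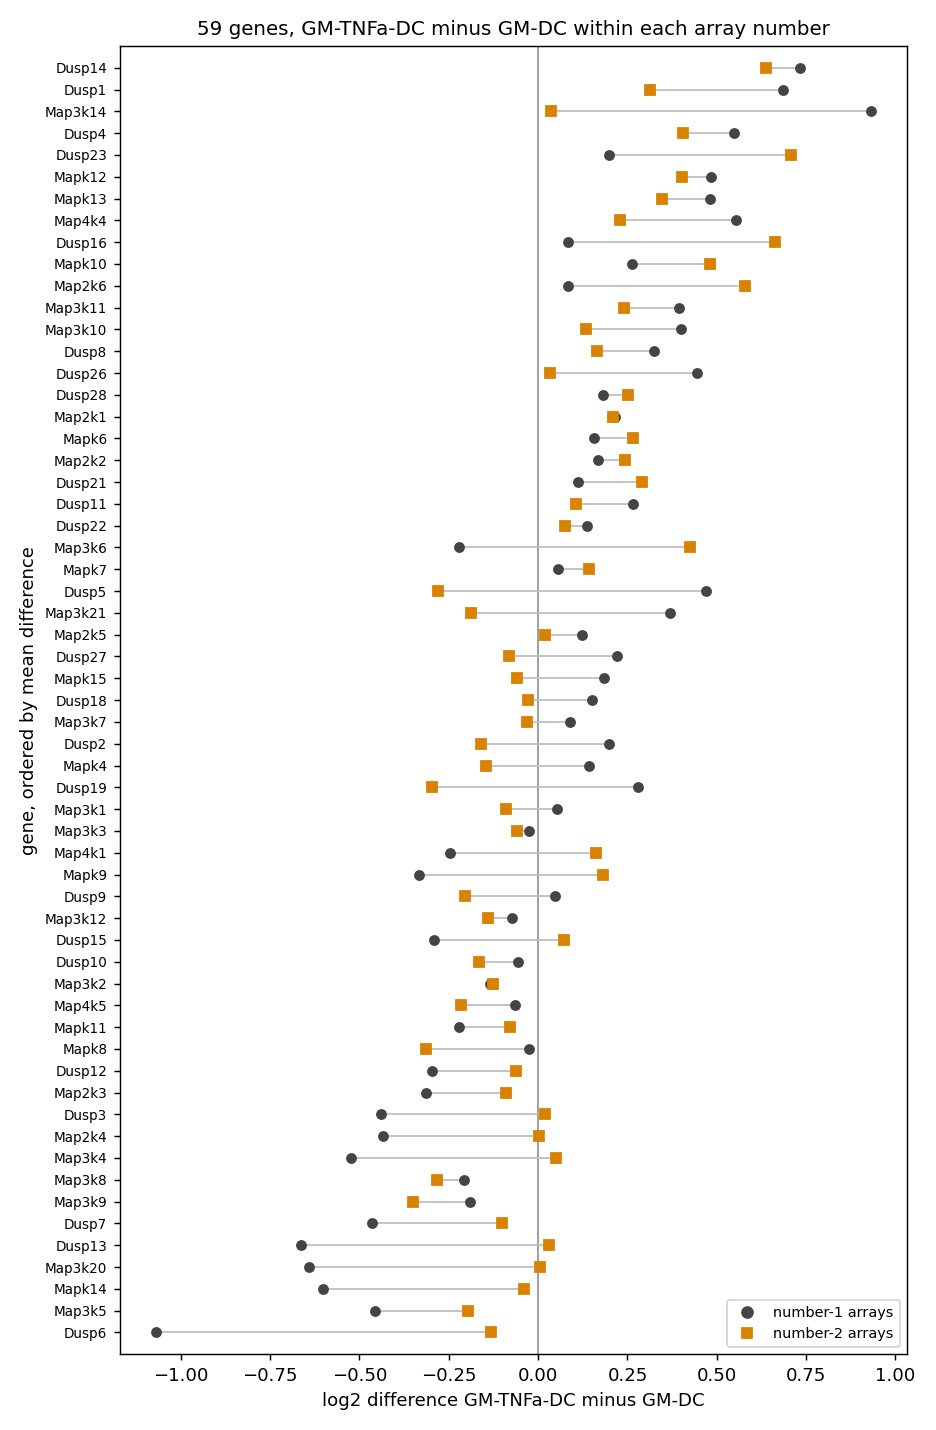
Log2 difference of GM-TNFa-DC minus GM-DC for each of the 59 genes, with a circle for the number-1 arrays, a square for the number-2 arrays and genes ordered by the mean of both. Dusp14 and Dusp4 are higher on both numbers by similar amounts, while Map3k14 and Dusp6 differ mainly on number 1.

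Several genes differed more between the array numbers than between the dendritic cell groups. On the 4 dendritic cell arrays, with the group as a term, 4 of the 59 genes were higher on number 2, against 6.41% of all genes, and 5 were lower, against 5.41% of all genes (limma, adjusted p under 0.05). Together these are 15.3% of the set and 11.8% of all genes. This comparison was chosen after seeing the data.

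The 4 genes higher on number 2 were the p38 activator Map2k6 (2.44 ± 0.18, adjusted p = 0.00391), the ERK phosphatases Dusp6 (2.04 ± 0.25, adjusted p = 0.0125) and Dusp4 (1.63 ± 0.15, adjusted p = 0.00561), and Dusp14 (0.74 ± 0.14, adjusted p = 0.0375). Lower on number 2 were Mapk13 (-1.62 ± 0.15, adjusted p = 0.00554), Dusp11 (-1.59 ± 0.13, adjusted p = 0.00493), Dusp22 (-0.85 ± 0.14, adjusted p = 0.0236), Dusp1 (-0.75 ± 0.15, adjusted p = 0.0388) and Map2k2 (-0.66 ± 0.13, adjusted p = 0.0427). Dusp11, a phosphatase that acts on RNA ends, was at 9.55 and 7.87 in GM-TNFa-DC, 9.28 and 7.77 in GM-DC, and 8.66 and 8.89 in GM-MPP. In GM-MPP the number-2 array was the higher for Dusp11, opposite to the dendritic cells.

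Array pairs differed by over 1 log2 unit for 6 of the 59 genes in GM-TNFa-DC, 5 in GM-DC and 0 in GM-MPP, or 10.2%, 8.47% and 0% of the set against 8.94%, 7.31% and 2.18% of all genes. The 5 in GM-DC were Dusp4, Dusp6, Dusp11, Map2k6 and Mapk13, and GM-TNFa-DC added Map3k14. For these genes the mean of a dendritic cell group lies well between its arrays. The poly-A controls, brighter on number 1 in all 3 groups, and the dendritic cell marker mean, higher on number 1 in both dendritic cell groups, moved with the array number. So did the neutrophil granule mean, at 6.99 and 6.35 in GM-TNFa-DC and 8.23 and 6.60 in GM-DC. Single macrophage markers shifted in opposite directions, as in GM-DC with Cd14 at 7.48 and 12.50 and Mrc1 at 11.85 and 8.48. The part of these controls and markers was not tested. The labels do not say what the number stands for.

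**Figure D5:**
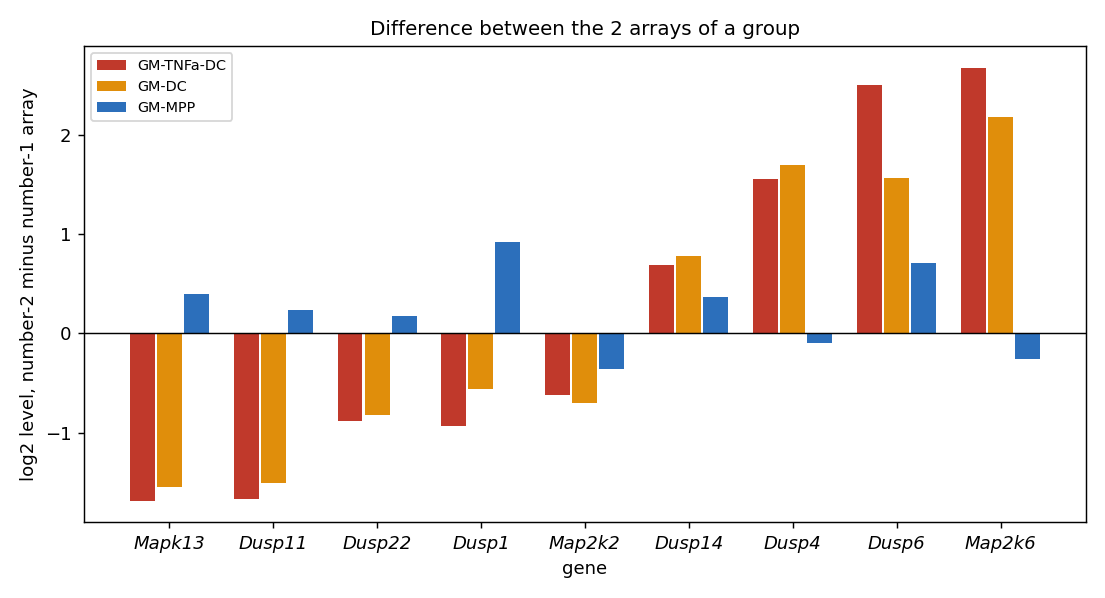
Log2 difference between the number-2 and the number-1 array within each group for the 9 genes called by array number in the dendritic cells, with 1 bar per group and no error bar because each bar is a single pair of arrays. For Mapk13, Dusp11, Dusp22, Dusp1, Dusp4 and Map2k6 the GM-MPP bar has the opposite sign to both dendritic cell bars.

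Other genes of the pathway were counted in 6 lists. Of 14 measured Ras, Raf and adaptor genes, which carry receptor signals to the ERK chain, 1 rose and 2 fell in each comparison with GM-MPP, where 2.77% of all genes rose and 4.26% fell in GM-TNFa-DC, and 1.87% rose and 2.63% fell in GM-DC. All 3 encode exchange factors that load small GTPases of the Ras family with GTP, not all of them Ras itself. Rasgrp1 was at 8.43 and 6.78 in GM-TNFa-DC, 7.77 and 6.59 in GM-DC, and 3.21 and 3.88 in GM-MPP, a change of 4.06 ± 0.66 (adjusted p = 0.0281) and 3.64 ± 0.66 (adjusted p = 0.0445). With the mean of its probe sets the changes of Rasgrp1 were 2.03 and 1.60 and neither passed (adjusted p = 0.0578 and 0.116), and leaving out an array kept the call in 3 and 2 of 6 cases.

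Rasgrp2 went the other way, at 4.87 and 5.17 in GM-TNFa-DC, 4.83 and 5.39 in GM-DC, and 8.31 and 8.38 in GM-MPP, with changes of -3.33 ± 0.25 (adjusted p = 0.00498) and -3.23 ± 0.25 (adjusted p = 0.00541). Rasgrp3 was at 3.10 and 3.60 in GM-TNFa-DC, 3.92 and 4.08 in GM-DC, and 6.62 and 6.05 in GM-MPP, and it too fell (-2.99 ± 0.26 and -2.34 ± 0.26, adjusted p = 0.00726 and 0.0156). The dendritic cells thus had Rasgrp1 above and Rasgrp3 below the median of all values, and the progenitors the reverse. A change against a group below that median, as for Rasgrp1, Rasgrp3 and Egr2, is measured against a level near background. With the mean of its probe sets Rasgrp3 changed by -1.91 and -1.55.

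Of 26 nuclear targets of MAP kinases, 5 rose and 1 fell in GM-TNFa-DC, and 2 rose and 1 fell in GM-DC, each against GM-MPP and beside the shares of all genes just given. As a list they did not share a direction. On both array numbers 9 were higher and 9 lower in GM-TNFa-DC, with a median change of -0.11, against 39.1% and 30.7% of all genes. In GM-DC 10 were higher and 7 lower, with a median of -0.02, against 35.5% and 32.6% of all genes. Egr2, an early response transcription factor, was at 10.20 and 9.19 in GM-TNFa-DC, 10.48 and 9.01 in GM-DC, and 4.26 and 4.10 in GM-MPP, a change of 5.52 ± 0.56 and 5.57 ± 0.56 (adjusted p = 0.0101 and 0.0121). Atf3, a stress-induced factor, rose by 3.63 ± 0.26 and 3.57 ± 0.26 (adjusted p = 0.00438 and 0.00519), and Myc, which drives cell growth, fell (-2.99 ± 0.31 and -2.22 ± 0.31, adjusted p = 0.0105 and 0.0247). Ets2 (1.93 ± 0.30), Junb (1.97 ± 0.40) and Maff (1.62 ± 0.27) rose in GM-TNFa-DC (adjusted p = 0.0257, 0.0475 and 0.0291). Leaving out an array kept the call in 2 of 6 cases for Ets2, 0 of 6 for Junb and 1 of 6 for Maff, and with the mean of its probe sets Ets2 changed by 1.24. Against GM-DC these 3 differed by 1.11 ± 0.30, 0.99 ± 0.40 and 0.83 ± 0.27 without passing (adjusted p = 1).

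No gene was called among 13 Ras GTPase-activating, Sprouty and Spred genes, 13 scaffolds, 8 kinases activated by MAP kinases or 7 other phosphatases of MAP kinases. Among the Spred genes, inhibitors of Raf activation, Spred1 differed by 1.47 ± 0.31 in GM-TNFa-DC (adjusted p = 0.0526) and Spred2 by -0.98 ± 0.85 in GM-DC (adjusted p = 0.565), each against GM-MPP. The arrestins, scaffolds for ERK and JNK, lay in opposite directions in GM-DC, with -1.35 ± 0.27 for Arrb2 (adjusted p = 0.0582) and 1.32 ± 0.35 for Arrb1 (adjusted p = 0.108). Rps6ka3, an ERK-activated kinase, had changes of 0.93 ± 0.56 in GM-TNFa-DC and 1.33 ± 0.56 in GM-DC (adjusted p = 0.364 and 0.251). Ppm1d, a phosphatase that acts on p38, was lower on all dendritic cell arrays, with changes of -1.28 ± 0.28 and -1.05 ± 0.28 (adjusted p = 0.0590 and 0.108). The lists were chosen with earlier results of these data known and are given as counts.

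Probe sets of a gene did not always agree. Of the 37 genes of the set with over 1 probe set, all probe sets had the same sign for 24 in GM-TNFa-DC against GM-MPP, for 20 in GM-DC against GM-MPP and for 18 in GM-TNFa-DC against GM-DC. Map3k6, Dusp13, Dusp2 and Map4k1 each had a single probe set, so their calls have no second reading on the array. The 6 probe sets of Mapk14 ranged from -1.84 to -0.17 in GM-TNFa-DC against GM-MPP and from -1.47 to 0.04 in GM-DC against GM-MPP.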

How the data were processed

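The authors processed the arrays with RMA (background correction, quantile normalization, probe summary) per the submitters' processing notes, and with Bioconductor per the labels. The deposited values are taken to be log2 because they run from 1.89 to 14.4, with array medians of 4.67 to 4.77. Which arrays were normalized together is not given in the sources used here. Of 45101 probe sets, 34945 had 1 gene symbol in the platform annotation, 932 several and 9160 none, and 64 were controls. Symbols were updated through Entrez identifiers to RefSeq for 34741 probe sets. The brightest probe set with 1 symbol stood for its gene. The 59 genes had 134 probe sets, and 37 genes had more than 1.

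The 3 groups were fitted together in limma 3.58.1 under R 4.3.3 (lmFit, eBayes with an intensity trend), so that they share 1 spread with 3 residual degrees of freedom. P-values were adjusted by Benjamini-Hochberg over 18193 genes. The procedure was tested on simulated data for the sign and size of known changes. The simulated arrays varied independently, whereas same-numbered dendritic cell arrays deviated together here, so that test does not cover such shared deviations. Values after ± are moderated standard errors. The number of arrays limits the precision. The labels give groups and numbers, and the numbers are not stated to pair samples.

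Named were all genes called in any comparison, the 6 with the largest change among those without overlap per comparison, a fixed panel of the set, and for other pathway lists up to 3 called genes or the largest changes where none was called. The text gives part of these, and other genes of the set were named after their values were seen, to complete each role. The genes and lists were chosen with earlier results of these data known. The alternatives tried were median centring, another round of quantile normalization, averaging all probe sets of a gene, a filter on dim genes, other eBayes priors, only the arrays compared, the array number as a block, and each array left out. The block on the 4 arrays compared and the test of the array number were added after seeing the data. Python 3.11.15 and matplotlib 3.10.9 prepared tables and plots.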

Additional observations from a re-analysis of the deposited data

How the results depend on the processing

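In GM-TNFa-DC against GM-MPP the set had 1 gene higher and 4 lower, and all genes 504 and 775. A second quantile normalization gave 1 and 2 (521 and 661 of all genes). Only the 4 arrays compared gave 1 and 2 (303 and 446). In GM-DC against GM-MPP the main counts were 2 higher and 2 lower (340 and 479 of all genes). They became 2 and 1 (375 and 447) with a second quantile normalization and 1 and 1 (315 and 526) with median centring. With a gene's probe sets averaged they were 1 and 2 (294 and 467). Without the intensity trend they were 3 and 5 (423 and 669), and with only the 4 arrays compared 1 and 2 (349 and 365). Leaving out each array gave 0 to 1 higher and 0 to 2 lower of the set in GM-TNFa-DC against GM-MPP (37 to 303 and 51 to 457 of all genes), and 0 to 1 higher and 0 to 3 lower in GM-DC against GM-MPP (20 to 346 and 30 to 371 of all genes). In GM-TNFa-DC against GM-DC every alternative run gave 0 and 0. Over all alternatives, 1393 of 1550 gene values kept their sign and their side of the threshold, 113 lost and 32 gained a call, and 12 changed sign. Most of these values belong to genes not called in the main fit, so their share does not measure how stable the calls were. GM-TNFa-DC against GM-DC, without any call, gave 276 of the 281 values there unchanged. Over the 9 alternatives that left out no array, each called gene of the set kept its call in 5 to 8.

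The changes of sign came when an array was left out. In GM-DC against GM-MPP, Dusp6 then ranged from -0.62 to 0.95 (main value 0.16), Map2k6 from -1.86 to 0.33, Dusp14 from -0.10 to 0.68 (0.29) and Spred2 from -2.01 to 0.0457 (-0.98). In GM-TNFa-DC against GM-MPP, Dusp6 ranged from -1.69 to 0.82 (-0.44) and Map2k6 from -1.77 to 0.91. In GM-TNFa-DC against GM-DC, Dusp4 ranged from -0.37 to 1.33, Dusp6 from -1.85 to 0.65 and Map3k14 from -0.25 to 1.22. Over the other 9 alternatives, the lowest and highest change of Dusp16 were 1.62 and 2.32 in GM-TNFa-DC and 1.2 and 1.92 in GM-DC, each against GM-MPP.

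The labels do not state that array numbers pair samples, and there are only 2 of them. Deviations from the group means of same-numbered arrays correlated over genes at 0.81 between GM-TNFa-DC and GM-DC, 0.07 between GM-TNFa-DC and GM-MPP and 0.10 between GM-DC and GM-MPP. With the number as a replicate block, 4 genes of the set were higher and 6 lower in GM-TNFa-DC against GM-MPP (850 and 1210 of all genes), 2 and 3 in GM-DC against GM-MPP (627 and 849), and 0 and 0 in GM-TNFa-DC against GM-DC. With the block on only the 4 arrays compared, 0 genes of the set were called in any comparison, against 144 and 116 of all genes in GM-TNFa-DC against GM-MPP and 151 and 125 in GM-DC against GM-MPP, with 1 residual degree of freedom. The cause of these shifts was not tested. Signal near background limits what can be read from the 8 dim genes of the set.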
